A study of Mus musculus with 12 samples.

Results

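Potassium channel genes were taken as all genes whose platform symbol begins with Kcn, apart from 3 symbols left out by the selection rule, using probe sets that carried exactly 1 symbol. The rule gave 89 genes of the 19938 genes in the table, measured by 92 probe sets, and the probe set with the highest mean stood for a gene with more than 1. They fall into 21 classes of channel proteins, from Kcna to Kcnv, and 3 antisense transcripts (Kcnd3os, Kcnmb4os1 and Kcnmb4os2) that carry a channel gene's name. To be tested, a gene had to exceed the 25th percentile of the array on at least 3 arrays, and 87 of the 89 did. Kcne4 and Kcnj1 stayed below that level on all 12 arrays and were not tested.

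RNA from the striatum of male mice aged 90 days was measured on 12 whole-transcript arrays, 3 in each of 4 groups. The groups were HdhQ111/Q111 mice without mGluR5 (mGluR5-/-), HdhQ111/Q111 mice with mGluR5 (mGluR5+/+), HdhQ20/Q20 mice without mGluR5 and HdhQ20/Q20 mice with mGluR5. Q111 is an expanded CAG repeat knocked into the mouse Huntington disease gene, and all control mice carried a knocked-in allele too, the short Q20 repeat. mGluR5 is the metabotropic glutamate receptor encoded by Grm5. How the alleles were made is not given in the sources used here. All mice shared a mixed background of 129, CD-1, C57BL/6 and FV. Nothing in the labels states that each array is its own animal, and the p-values thus cover the spread among arrays of a genotype, which may be technical.

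Potassium channels let potassium leave the neuron and so hold the membrane at rest, end action potentials and set the interval to the next one. Striatal projection neurons are known for a very negative resting potential kept by inward rectifiers of the Kir2 type, for A-type currents of Kv4 and Kv1 channels that delay firing, and for calcium-activated channels that follow each spike. mGluR5 couples to Gq and releases calcium from internal stores, and calcium opens the small-conductance (SK) and large-conductance (BK) channels.

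Grm5 was checked first. It averaged 11.07 ± 0.08 (log2 signal, mean ± SD, n = 3 arrays here and below) in Q111 mGluR5-/- mice and 11.94 ± 0.08 in Q111 mGluR5+/+ mice, and 11.06 ± 0.12 in Q20 mGluR5-/- mice against 12.00 ± 0.07 in Q20 mGluR5+/+ mice, and it was called in both comparisons (-0.87 ± 0.09 in Q111 mice and -0.94 ± 0.09 in Q20 mice, SE, adjusted p = 0.00017 and 0.000189 in limma). The Htt probe set does not read the repeat length, so it is no direct check of the Htt labels. Its signal averaged 9.77 and 9.78 in Q111 mGluR5-/- and mGluR5+/+ mice, and 9.91 and 9.94 in Q20 mGluR5-/- and mGluR5+/+ mice. The Q111 and Q20 arrays did not overlap in either pairwise comparison or in the averaged Q111 effect, where 1.21% of all genes did not overlap. That effect was -0.15 ± 0.06 (SE) and was not called (adjusted p = 0.344 in limma). Array medians lay between 7.05 and 7.16, and interquartile ranges between 2.56 and 2.95. Of 12 listed markers of striatal projection neurons 10 were tested, with gene means of 8.73 to 12.87, all above the array medians. None of the tested genes of the 9 cell type marker lists was called in any contrast.

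Kcnn2 fell with the loss of mGluR5 in Q20 mice, and no other potassium channel gene passed the test in any of the 7 contrasts. Genes were called at an adjusted p below 0.05 in limma, adjusted over 16721 tested genes. In the loss of mGluR5 in Q20 mice 1 of 87 channel genes was called, while 0.299% of all tested genes were called. In Q111 against Q20 mice without mGluR5 1 of 87 was called, against 0.885% of all genes, and in the interaction (the Q111 effect without mGluR5 minus that with it) 1 of 87, against 0.437%. Each of these 3 calls was Kcnn2, and the 3 contrasts share the Q20 mGluR5-/- arrays. In the other contrasts limma called 0 of 87. Of all tested genes 0.574% were called in Q111 against Q20 mice with mGluR5, 0.275% in the loss of mGluR5 in Q111 mice, 1.32% in the averaged Q111 effect and 0.293% in the averaged loss. The numbers of channel genes at an unadjusted p below 0.05 in those 4 contrasts were 5, 5, 6 and 6 of 87, and the shares over all genes were 6.84%, 4.36%, 11.4% and 5.32%. The authors' criteria (p below 0.05 with a 1.5-fold change) called 0 channel genes in these 4 contrasts without adjustment. In the contrasts that called Kcnn2, the genes at an unadjusted p below 0.05 numbered 5 for Q111 against Q20 mice without mGluR5, 7 for the loss of mGluR5 in Q20 mice and 2 for the interaction, against 9.44%, 6.02% and 5.37% of all genes.

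The arrays of the compared groups did not overlap in 9 channel genes (10.3%) in Q111 against Q20 mice with mGluR5, against 9.69% of all genes. The same held for 13 channel genes (14.9%) in Q111 against Q20 mice without mGluR5, against 19.1%. It held for 8 channel genes (9.2%) in the loss of mGluR5 in Q20 mice, against 12.8%, and for 8 (9.2%) in the loss in Q111 mice, against 7.46%. These shares are near those of all genes or below them.

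In the pairwise comparisons the differences of most channel genes were bounded closely, and so were those of most tested genes. In Q111 against Q20 mice with mGluR5 the 95% confidence interval lay inside 1.5-fold in either direction for 86 of 87 genes. That was all but Kcnj11 (98.9%, against 95.1% of all tested genes). It did so for 83 genes (95.4%) in each of the other pairwise comparisons. The shares of all tested genes were 93.8% in Q111 against Q20 mice without mGluR5, 96% in the loss of mGluR5 in Q20 mice and 96.5% in the loss in Q111 mice. The genes with wider reach were Kcnj13, Kcnj14, Kcnn2 and Kcnn4 in Q111 against Q20 mice without mGluR5, Kcng4, Kcnj13, Kcnj14 and Kcnn2 in the loss of mGluR5 in Q20 mice, and Kcnc2, Kcng1, Kcnj11 and Kcnn4 in the loss in Q111 mice. The median log2 difference over the 87 genes was 0.003 with mGluR5 and -0.013 without it for Q111 against Q20, 0.010 for the loss in Q20 mice and -0.010 for the loss in Q111 mice. The same medians over all tested genes were -0.011, -0.022, 0.020 and 0.006. The interaction was less precise, with the interval inside 1.5-fold for 70 of 87 channel genes (80.5%), against 79.6% of all tested genes.

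**Figure D1:**
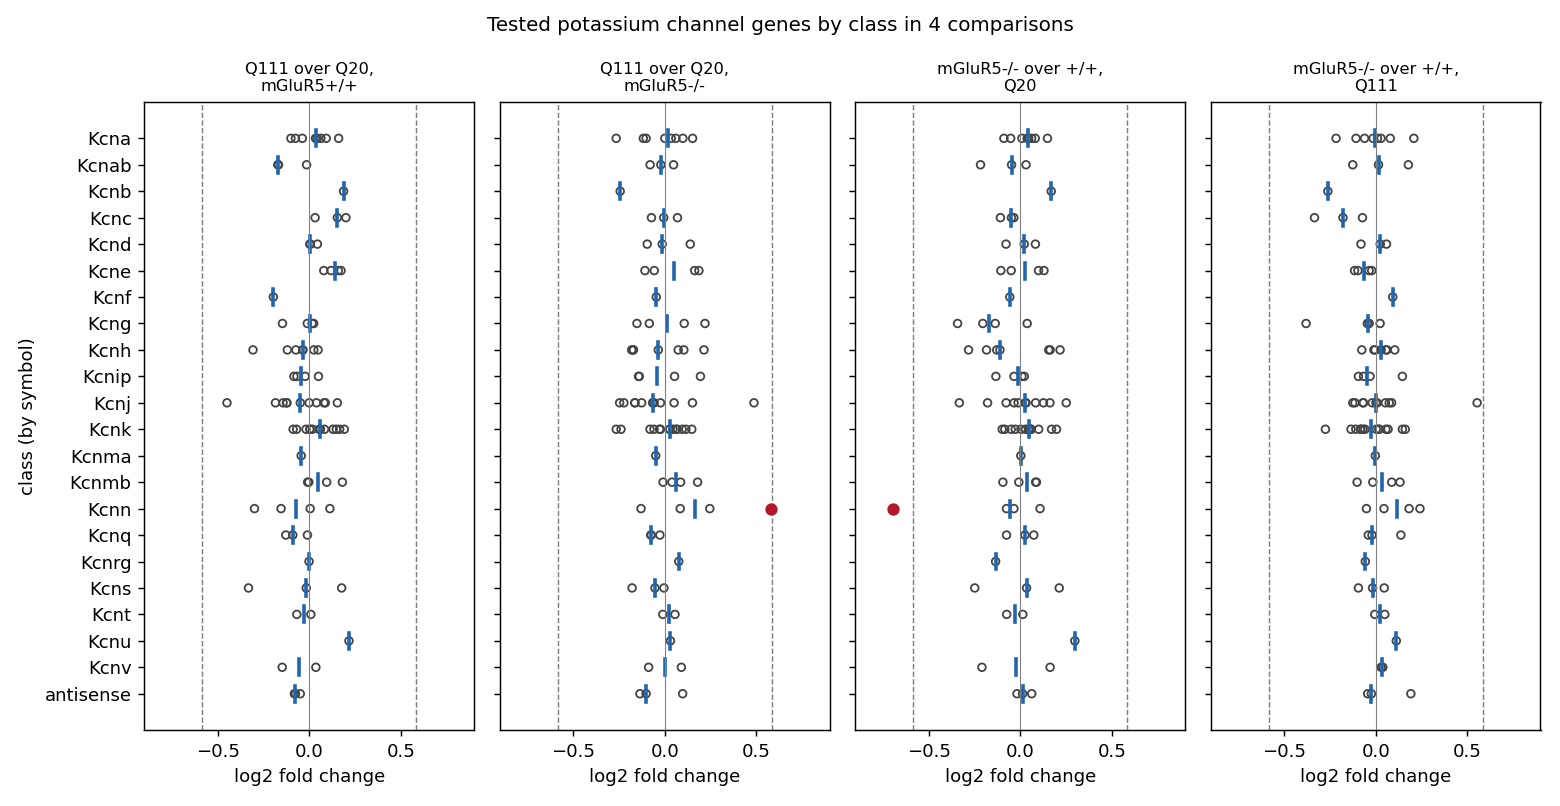
Log2 differences of the potassium channel genes by class in the pairwise comparisons, Q111 minus Q20 or mGluR5-/- minus mGluR5+/+. Open points are genes that were not called, red points are called genes, blue bars are class medians and dashed lines mark 1.5-fold. Kcnn2 is the only red point.

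Kcnn2 encodes SK2, a calcium-activated channel of small conductance that carries calmodulin as its calcium sensor and lengthens the pause after a spike. Its log2 signals were 8.48, 8.60 and 8.32 in Q111 mGluR5-/- mice and 8.48, 8.20 and 8.16 in Q111 mGluR5+/+ mice. They were 7.75, 7.99 and 7.91 in Q20 mGluR5-/- mice, against 8.50, 8.62 and 8.62 in Q20 mGluR5+/+ mice. The Q20 mGluR5-/- arrays were the low ones, below all 9 others by a gap of 0.17. In bulk tissue fewer cells that carry the transcript and less transcript per cell cannot be told apart.

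In Q20 mice the loss of mGluR5 gave Kcnn2 a log2 difference of -0.69 ± 0.11 (SE, adjusted p = 0.00907 in limma), a 1.62-fold lower signal with a 95% interval of -0.93 to -0.46. Without mGluR5, the signal was 0.58 ± 0.11 higher in Q111 than in Q20 mice, or 1.49-fold (adjusted p = 0.018 in limma), which misses the 1.5-fold criterion of the authors. The interaction was 0.88 ± 0.15 (adjusted p = 0.0181 in limma), so the Q111 effect differed with the presence of mGluR5. With mGluR5 the Q111 mice differed from Q20 mice by -0.30 ± 0.11, and the groups did not overlap, but the difference was not called (adjusted p = 0.481 in limma). In Q111 mice the loss of mGluR5 gave 0.18 ± 0.11 and was not called (adjusted p = 1 in limma).

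**Figure D2:**
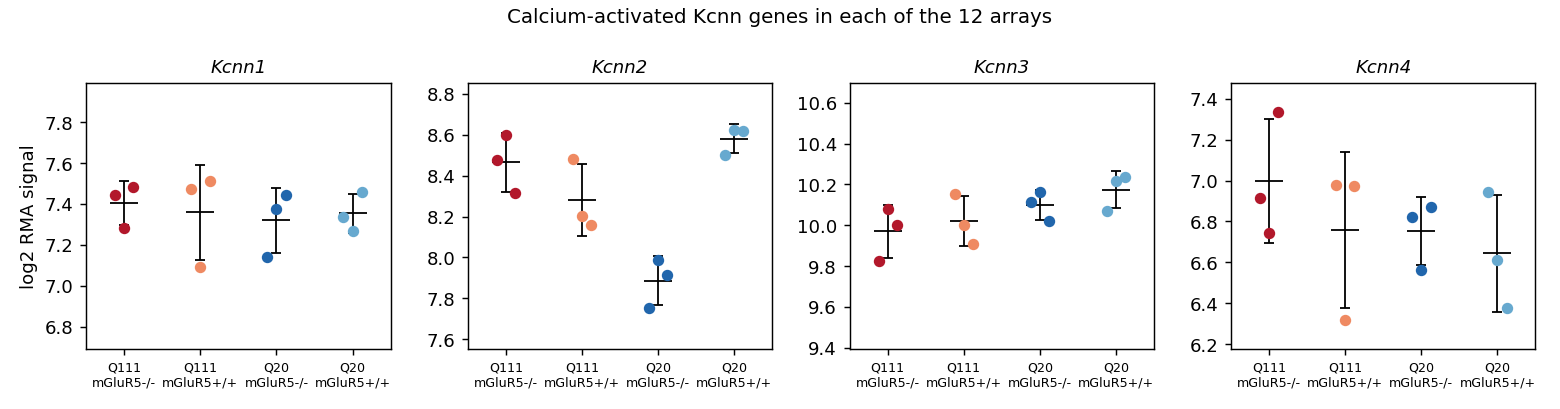
Log2 signal of the Kcnn genes on each array by genotype group. Points are arrays, bars are means and error bars are SD (n = 3). For Kcnn2, the Q20 mGluR5-/- arrays sit between 7.75 and 7.99, below the other 9 arrays.

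Leaving out single arrays ended some of the Kcnn2 calls. The call for loss of mGluR5 in Q20 mice held in 9 of 12 such fits and was lost without Q20 mGluR5-/- replicate 1 (adjusted p = 0.0737 in limma), Q20 mGluR5+/+ replicate 2 (0.058) or Q20 mGluR5+/+ replicate 3 (0.0631), with differences of -0.75 to -0.63 throughout. The Q111 call without mGluR5 held in 8 of 12 fits and was lost without Q111 mGluR5-/- replicates 1 (adjusted p = 0.085) or 2 (0.0989) or Q20 mGluR5-/- replicates 1 (0.136) or 3 (0.0557). The interaction held in 7 of 12 fits, and its differences ran from 0.81 to 0.98. It was lost without Q111 mGluR5-/- replicates 1 (adjusted p = 0.0606) or 2 (0.0611), Q20 mGluR5-/- replicate 1 (0.072), or Q20 mGluR5+/+ replicates 2 (0.0583) or 3 (0.0678).

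**Figure D3:**
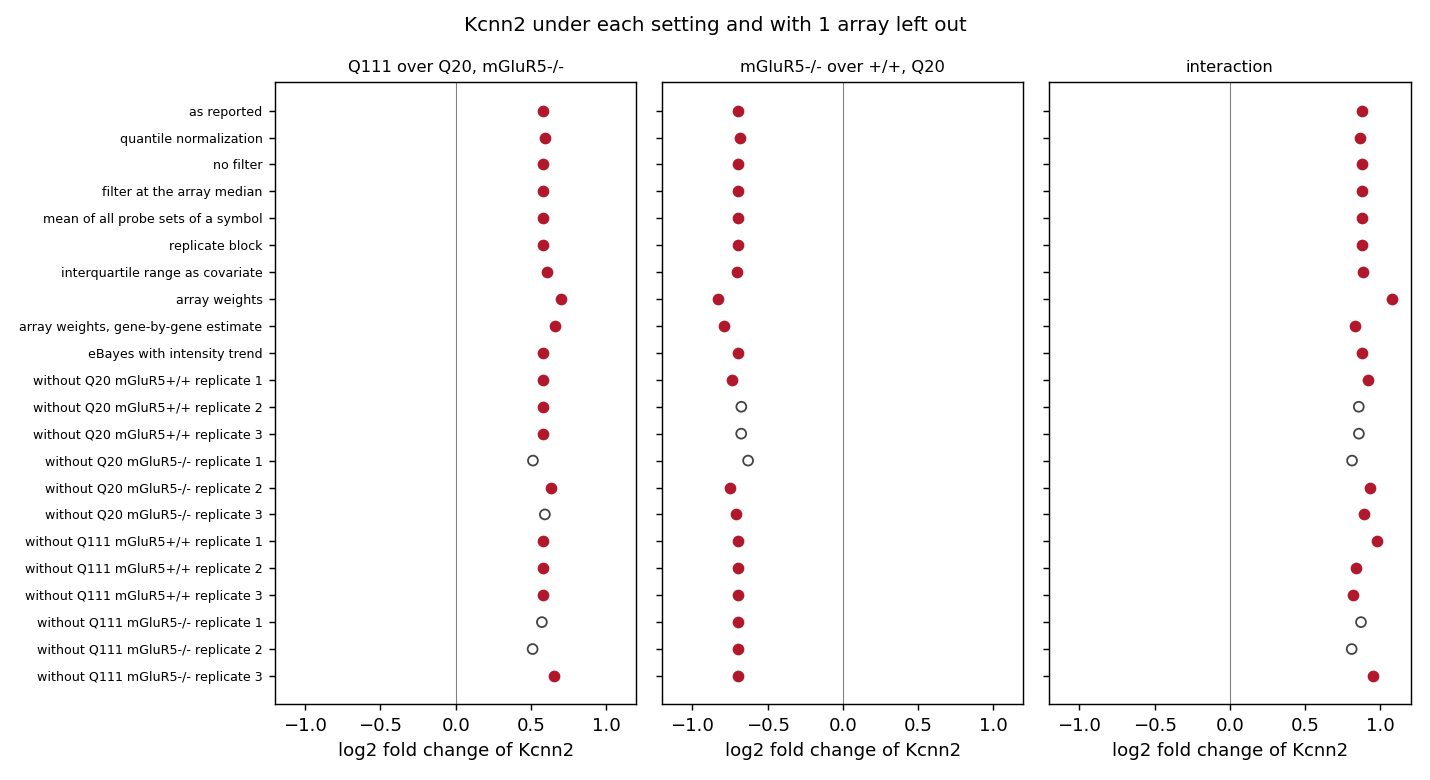
Log2 difference of Kcnn2 under each processing setting other than the authors' criteria and with each array left out, with the adjusted p below 0.05 shown as filled red points and others open. In the loss of mGluR5 in Q20 mice the differences stay between -0.75 and -0.63 when an array is left out.

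Several cell type marker lists reached higher values on the Q20 mGluR5-/- arrays. The mean log2 signal of the vascular list was 8.23 to 8.29 on the Q20 mGluR5-/- arrays, against 8.08 to 8.22 in Q20 mGluR5+/+ mice, and it was 7.98 to 8.13 in Q111 mGluR5-/- mice and 7.91 to 8.11 in Q111 mGluR5+/+ mice. In Q111 against Q20 mice without mGluR5, 9 of 9 vascular genes were lower, with a median of -0.23, and in the loss of mGluR5 in Q20 mice 7 of 9 were higher, with a median of 0.10. The list of striatal projection neurons lay at 11.52 to 11.57 on the Q20 mGluR5-/- arrays, against 11.42 to 11.52 in Q20 mGluR5+/+ mice. It lay at 11.46 to 11.50 in Q111 mGluR5-/- mice and 11.35 to 11.50 in Q111 mGluR5+/+ mice. Of its 10 tested genes 8 were higher in the loss of mGluR5 in Q20 mice (median 0.06). In Q111 against Q20 mice without mGluR5 6 of the 10 were lower (median -0.01). The microglia list lay at 8.19 to 8.40 on the Q20 mGluR5-/- arrays, against 8.15 to 8.23 in Q20 mGluR5+/+ mice. It lay at 8.11 to 8.19 in Q111 mGluR5-/- mice and 8.12 to 8.22 in Q111 mGluR5+/+ mice. Of its 7 genes 5 were higher in the loss of mGluR5 in Q20 mice (median 0.17), and 6 were lower in Q111 against Q20 mice without mGluR5 (median -0.15). The part of these lists in the Kcnn2 result was not tested. None of the 10 tested genes nearest to Kcnn2, 5 on either side in the gene order of RefSeq GRCm38.p6, was called in any contrast. The adjacent gene Ythdc2 had groups that did not overlap in both pairwise comparisons that called Kcnn2, in the opposite direction. It differed by 0.42 ± 0.16 in the loss of mGluR5 in Q20 mice (adjusted p = 0.676 in limma) and by -0.48 ± 0.16 in Q111 against Q20 mice without mGluR5 (adjusted p = 0.279 in limma), and its interaction was -0.53 ± 0.23 (adjusted p = 0.865 in limma).

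The other calcium-activated channels of this class were not called. Kcnn3, the gene of SK3, averaged 9.97 ± 0.13 in Q111 mGluR5-/- mice, 10.02 ± 0.12 in Q111 mGluR5+/+ mice, 10.10 ± 0.07 in Q20 mGluR5-/- mice and 10.17 ± 0.09 in Q20 mGluR5+/+ mice. Kcnn1, the gene of SK1, had group means between 7.32 and 7.40. Kcnn4, an intermediate-conductance channel, varied with SDs of 0.17 to 0.38 within groups, from 6.32 to 7.34 over the arrays, so its values are less precise.

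No gene for an A-type or delayed rectifier channel was called. Kcnd2 encodes Kv4.2, the main A-type pore, and averaged 11.81 ± 0.11 and 11.78 ± 0.06 in Q111 mGluR5-/- and mGluR5+/+ mice, and 11.82 ± 0.03 and 11.74 ± 0.10 in Q20 mGluR5-/- and mGluR5+/+ mice. Its partner Kcnip2, a KChIP subunit, averaged 10.50, 10.53, 10.44 and 10.48 in the same order of groups. Kcna4 (Kv1.4) averaged 10.43, 10.35, 10.37 and 10.31, and Kcnab1, a cytoplasmic Kv1 beta subunit, averaged 10.91, 10.90, 10.86 and 10.91. Kcna2, a Kv1 pore of axons, stayed between 10.47 and 10.67 on all 12 arrays.

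Kcnc genes encode Kv3 channels that let neurons fire fast. In Q111 against Q20 mice 3 of 3 were higher with mGluR5 (median 0.15) and 1 of 3 without it (median -0.01). In the loss of mGluR5 0 of 3 were higher in Q111 mice (median -0.18) and 0 of 3 in Q20 mice (median -0.05). The Q111 comparison with mGluR5 and the loss in Q111 mice share the Q111 mGluR5+/+ arrays. None was called, and Kcnc2 had the largest difference of them in the loss of mGluR5 in Q111 mice, -0.33 ± 0.14 (adjusted p = 0.956 in limma).

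Kcnb2 encodes Kv2.2. It gave 8.22, 8.27 and 8.03 in Q111 mGluR5-/- mice and 8.47, 8.45 and 8.38 in Q111 mGluR5+/+ mice, against 8.37, 8.53 and 8.35 in Q20 mGluR5-/- mice and 8.07, 8.33 and 8.34 in Q20 mGluR5+/+ mice. Its interaction was -0.43 ± 0.14 and was not called (adjusted p = 0.551 in limma). Kcna5 (Kv1.5) gave 7.45, 7.28 and 7.56 in Q111 mGluR5-/- mice, against 7.68, 7.82 and 7.59 in Q20 mGluR5-/- mice, a difference of -0.26 ± 0.10 (adjusted p = 0.392 in limma). For Kcna5 the Q111 mGluR5-/- arrays lay below those of Q20 mGluR5-/- mice. For Kcnb2 the groups did not overlap in any of the pairwise comparisons. Its differences in Q111 against Q20 mice were 0.19 ± 0.10 with mGluR5 and -0.24 ± 0.10 without it, and the loss of mGluR5 gave -0.26 ± 0.10 in Q111 mice and 0.17 ± 0.10 in Q20 mice, none called.

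Silent subunits make no channel alone and join Kv2 pores to alter them. Kcng1 gave 8.67, 8.49 and 8.32 in Q111 mGluR5-/- mice, against 8.88, 8.95 and 8.79 in Q111 mGluR5+/+ mice. The difference was -0.38 ± 0.11 in Q111 mice and -0.29 ± 0.08 averaged over both Htt alleles (adjusted p = 0.394 and 0.279 in limma), and it was not called. Kcns1 gave 6.51, 6.15 and 6.10 in Q111 mGluR5+/+ mice, against 6.51, 6.68 and 6.57 in Q20 mGluR5+/+ mice, a difference of -0.33 ± 0.12 (adjusted p = 0.431 in limma). Kcng4 was -0.34 ± 0.13 in the loss of mGluR5 in Q20 mice (adjusted p = 0.591 in limma). Kcnf1 differed by -0.20 ± 0.14 in Q111 against Q20 mice with mGluR5, and Kcnv1 by 0.16 ± 0.12 in the loss of mGluR5 in Q20 mice, neither called.

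The Kcnh genes encode ether-a-go-go channels, and 2 of 7 were higher in Q111 than in Q20 mice with mGluR5 and 3 of 7 without it. In the loss of mGluR5 4 of 7 were higher in Q111 mice and 3 of 7 in Q20 mice. Kcnh4, an Elk channel of the forebrain, gave 9.19, 9.23 and 9.16 in Q111 mGluR5+/+ mice and 9.25, 9.15 and 9.26 in Q20 mGluR5-/- mice, against 9.33, 9.68 and 9.50 in Q20 mGluR5+/+ mice. The differences from Q20 mGluR5+/+ mice were -0.31 ± 0.10 and -0.28 ± 0.10 (adjusted p = 0.314 and 0.532 in limma). Its Q20 mGluR5+/+ arrays lay above the other 9. Kcnq genes, which carry the M current that muscarinic receptors close, gave 0 of 3 higher in both Q111 comparisons, with medians of -0.09 with mGluR5 and -0.07 without it. Kcnq3 averaged 10.41, 10.43, 10.48 and 10.55 in Q111 mGluR5-/-, Q111 mGluR5+/+, Q20 mGluR5-/- and Q20 mGluR5+/+ mice.

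The BK pore Kcnma1 averaged 10.18 and 10.19 in Q111 mGluR5-/- and mGluR5+/+ mice, and 10.23 in both Q20 groups. Its other probe set averaged 5.68 and 5.23 in Q111 mGluR5-/- and mGluR5+/+ mice, and 5.02 and 4.92 in Q20 mGluR5-/- and mGluR5+/+ mice. Those means lie below the 25th percentiles of the arrays, which were 5.69 to 5.94. With the mean of both probe sets, Q111 against Q20 mice without mGluR5 differed by 0.31, against -0.05, and was not called. The sodium-activated channel Kcnt1 averaged 10.38, 10.33, 10.33 and 10.40 in Q111 mGluR5-/-, Q111 mGluR5+/+, Q20 mGluR5-/- and Q20 mGluR5+/+ mice. Kcnu1, known as a sperm channel, lay near the 25th percentile of its arrays, above it on 8 of 12. All 3 Q20 mGluR5+/+ arrays were below that level, and so was 1 of the Q111 mGluR5+/+ arrays. It gave 6.00, 5.96 and 5.93 in Q20 mGluR5-/- mice, against 5.60, 5.73 and 5.66 in Q20 mGluR5+/+ mice, a difference of 0.30 ± 0.08 that was not called (adjusted p = 0.219 in limma), and was called with the interquartile range of each array as a covariate (adjusted p = 0.0421).

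Inward rectifiers hold the resting potential. Kcnj2 (Kir2.1) averaged 8.23 ± 0.19 in Q111 mGluR5-/- mice, 8.18 ± 0.32 in Q111 mGluR5+/+ mice, 8.40 ± 0.05 in Q20 mGluR5-/- mice and 8.36 ± 0.18 in Q20 mGluR5+/+ mice. Kcnj4 (Kir2.3) averaged 10.02, 9.94, 10.05 and 10.06 in the same order. Neither was called. Of 11 tested Kcnj genes 5 were higher in Q111 than in Q20 mice with mGluR5, with a median of -0.05, and 3 were higher without it, with a median of -0.07. In the loss of mGluR5 6 of 11 were higher in Q111 mice and 6 in Q20 mice.

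Kcnj11 encodes Kir6.2, the pore of channels that close when ATP is high. It gave 8.45, 8.09 and 8.19 in Q111 mGluR5-/- mice, against 7.60, 8.07 and 7.41 in Q111 mGluR5+/+ mice. In Q20 mice it gave 8.31, 8.38 and 8.22 without mGluR5, against 8.13, 8.33 and 7.95 with it. The Q111 mGluR5+/+ arrays were the low ones, apart from replicate 2. The loss of mGluR5 in Q111 mice differed by 0.55 ± 0.15 and was not called (adjusted p = 0.275 in limma). Without Q111 mGluR5+/+ replicate 2 it was called at 0.74 (adjusted p = 0.0185 in limma), and Q111 against Q20 mice with mGluR5 was called at -0.64 (adjusted p = 0.0299), against -0.45 with all arrays. The averaged Q111 effect (-0.35, adjusted p = 0.0426) and the averaged loss (0.45, adjusted p = 0.0363) were also called in that fit. With the interquartile range as a covariate the loss in Q111 mice was called too, at 0.54 (adjusted p = 0.0311 in limma). It stayed uncalled in 19 of 22 alternatives, and leaving out 1 array gave differences of 0.41 to 0.74. Q111 against Q20 mice with mGluR5 stayed uncalled in 20 of 22. The interquartile ranges of Q111 mGluR5+/+ replicates 1, 2 and 3 were 2.69, 2.93 and 2.56. Within groups the Kcnj11 signal correlated with that range at r = 0.73. Of the 62 tested channel genes with means above the array median, 46 rose with the range, Kcnj11 among them. Beyond the covariate fit, the part of the range in the Kcnj11 differences was not tested.

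Kcnj14 (Kir2.4) gave 6.31, 6.57 and 6.69 in Q111 mGluR5-/- mice, against 6.43, 5.57 and 6.10 in Q20 mGluR5-/- mice. The difference of 0.49 ± 0.19 was not called (adjusted p = 0.383 in limma), and 1 array of the Q20 mice reached into the range of the Q111 mice.

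The Kcnk class encodes leak channels with a pair of pore loops per subunit. In Q111 against Q20 mice 11 of 14 tested genes (78.6%) were higher with mGluR5 (median 0.06), against 45.9% of all tested genes, and 8 of 14 (57.1%) without it (median 0.03), against 43.3%. In the loss of mGluR5 7 of 14 (50.0%) were higher in Q111 mice (median -0.03), against 52.6%, and 10 of 14 (71.4%) in Q20 mice (median 0.05), against 57.0%. The counts of 11 and 10 share the Q20 mGluR5+/+ arrays, and none of the 14 genes was called. Kcnk1 (TWIK-1) gave 9.87, 9.98 and 9.80 in Q111 mGluR5-/- mice, below the other 9 arrays, whose range was 10.01 to 10.39. The interaction was -0.32 ± 0.15 and was not called (adjusted p = 0.928 in limma). Kcnk2 (TREK-1) ran from 9.92 to 10.21 over all arrays.

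No tested gene of the G protein-gated rectifiers was called. Kcnj3 (Kir3.1) averaged 8.22 ± 0.02 in Q111 mGluR5-/- mice, 8.28 ± 0.11 in Q111 mGluR5+/+ mice, 8.07 ± 0.20 in Q20 mGluR5-/- mice and 8.24 ± 0.12 in Q20 mGluR5+/+ mice. Kcnj6 (Kir3.2) ran from 5.98 to 6.71 over the arrays. Kcnj6 and Kcnj5, a further gene of this kind, exceeded the array median on 0 of 12 arrays.

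Auxiliary subunits were not called either. The Kv1 beta genes Kcnab2 and Kcnab3 each differed by -0.17 ± 0.09 in Q111 against Q20 mice with mGluR5. Of the 4 calcium-binding A-type subunit genes 2 were higher and 2 lower in Q111 against Q20 mice without mGluR5. Kcnip1 differed by 0.20 ± 0.17 and Kcnip2 by 0.05 ± 0.09 there, and Kcnip3 by -0.14 ± 0.09 and Kcnip4 by -0.14 ± 0.17. Kcnmb4, the BK beta subunit of brain, ran from 7.86 to 8.31 over the arrays. Kcne genes encode small membrane subunits. Kcne1 exceeded the 25th percentile on 3 arrays, all from Q111 mice, so it passed the filter through those groups, and Kcne3 exceeded it on 4 arrays. Kcne1l differed by 0.16 ± 0.14 and Kcne2 by 0.08 ± 0.13 in Q111 against Q20 mice with mGluR5. The antisense transcripts Kcnd3os, Kcnmb4os1 and Kcnmb4os2 were not called, with differences of -0.14 to 0.19 in the pairwise comparisons.

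**Figure D4:**
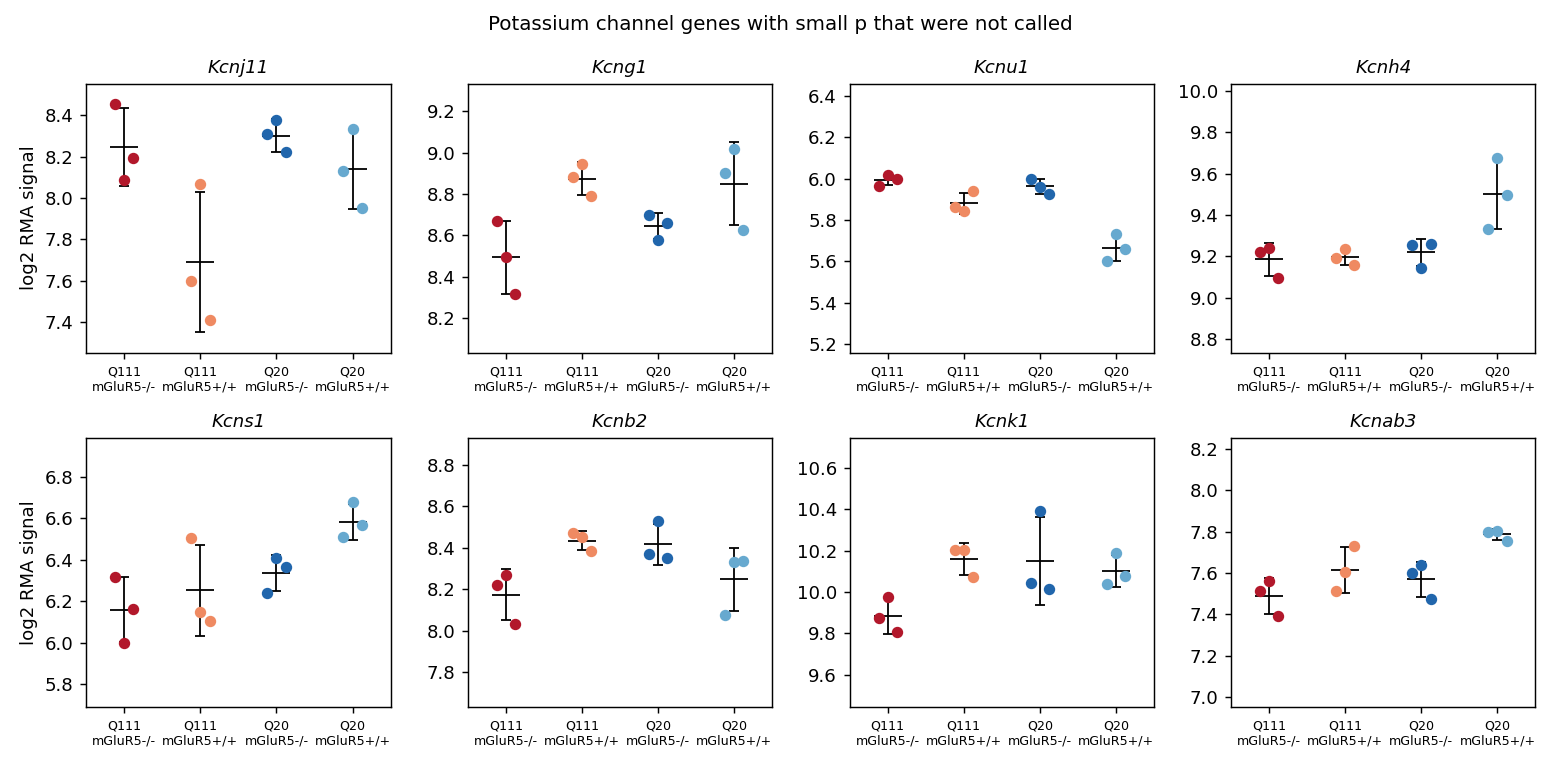
Log2 signals on each array of channel genes that had small p-values without being called, by genotype group. Points are arrays, bars are means and error bars are SD (n = 3). The Kcnj11 values of Q111 mGluR5+/+ mice are 7.60, 8.07 and 7.41, and those of Q111 mGluR5-/- mice are 8.45, 8.09 and 8.19.

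The share of channel genes with 1 group apart from all other arrays was above that of all genes for the Q20 mGluR5+/+ arrays. For the other groups it was below. The Q20 mGluR5+/+ arrays were apart in 5 of 87 genes (5.75%, against 1.39% of all genes), with Kcnab3, Kcnh4 and Kcns1 above and Kcnk10 and Kcnu1 below. The Q20 mGluR5-/- arrays were apart in Kcnn2 (1.15%, against 2.31%), the Q111 mGluR5-/- arrays in Kcnk1 (1.15%, against 1.39%), and the Q111 mGluR5+/+ arrays in 0 genes, against 1.11%. These genes were chosen after their values were seen.

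Of 30 listed partners that bind or tune potassium channels 27 were tested. Abcc9, the SUR2 subunit of ATP-sensitive channels, was the partner that passed. It was 1 of 27 in the loss of mGluR5 in Q20 mice, against 0.299% of all genes. In Q111 against Q20 mice without mGluR5 it was 1 of 27, against 0.885%. It gave 7.33, 7.36 and 7.37 in Q20 mGluR5-/- mice, against 6.85, 6.87 and 6.96 in Q20 mGluR5+/+ mice, and 6.82, 6.98 and 6.87 in Q111 mGluR5-/- mice. Abcc9 rose with the loss of mGluR5 in Q20 mice, by 0.46 ± 0.08 (adjusted p = 0.0203 in limma), and without mGluR5 it differed by -0.46 ± 0.08 in Q111 against Q20 mice (adjusted p = 0.0109 in limma). Its Q111 mGluR5+/+ arrays gave 6.93, 6.91 and 6.89, so the Q20 mGluR5-/- arrays lay above the other 9. Both called contrasts share those arrays. The Abcc9 interaction was -0.48 ± 0.12 and was not called (adjusted p = 0.133 in limma). Fits with single arrays left out were not examined for Abcc9. SUR2 is also made by vascular mural cells. The mean of the vascular list given beside Kcnn2 was higher on the same arrays. In the loss of mGluR5 in Q20 mice 7 of its 9 genes were higher and 2 were lower. The lower ones were Pdgfrb (8.36 in Q20 mGluR5-/- mice, against 8.40 in Q20 mGluR5+/+ mice) and Kdr (6.44 against 6.46). The part of this list in the Abcc9 result was not tested. Dpp10, which speeds A-type channels, differed by 0.64 ± 0.14 in the loss of mGluR5 in Q20 mice and was not called (adjusted p = 0.0783 in limma), and the calcium sensor gene Calm2 differed by 0.35 ± 0.09 (adjusted p = 0.144).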

How the data were processed

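The authors deposited RMA log2 signals, per the submitters' processing notes, and stated Partek Genomics Suite 6.5, ANOVA p below 0.05 and 1.5-fold as their criteria, per the series' design text. Of 35556 probe sets the platform annotation gave 21789 exactly 1 symbol, 1621 several and 12146 none. For each gene the probe set whose 12-array mean was highest was kept. All groups entered 1 limma model (limma 3.58.1, R 4.3.3), with a mean for each group and 8 residual degrees of freedom. The 7 contrasts were two-sided, adjusted by Benjamini-Hochberg over 16721 genes that passed the filter. Genes are named where they were called, were among the 3 with the smallest p of a contrast, had the highest mean of a class or were on a list of known striatal channels, and others are named as precision limits, class members or genes chosen after their values were seen. Members and lists were chosen with earlier results of these data known. The scripts were tested on simulated data. Alternatives changed the filter, normalization, probe sets, variance model, weights, covariates, criteria and arrays. Arrays hold no counts, and their number limits the precision. Gene order came from RefSeq GRCm38.p6. Plots used matplotlib 3.10.9 in Python 3.11.15.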

Additional observations from a re-analysis of the deposited data

Results flagged for a closer look

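Kcnn2 drew attention because its Q111 effect differed with the presence of mGluR5. The interaction was 0.88 on the log2 scale (adjusted p = 0.0181 in limma), and the difference was 0.58 without mGluR5 and -0.30 with it.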

How the results depend on the processing

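Kcnn2 kept its direction in its 3 called contrasts under each alternative. Leaving out 1 array gave 0 to 1 channel genes called in each of the 7 contrasts. The authors' criteria called 0 in Q111 against Q20 mice without mGluR5, because Kcnn2 differed 1.49-fold there. The interquartile range as a covariate called 2 in the loss of mGluR5 in Q20 mice, 1 in the loss in Q111 mice and 1 in the averaged Q111 effect (Kcnj15). Array weights by REML called 15 in Q111 against Q20 mice without mGluR5 and 13 in the loss in Q20 mice. That estimate stopped before its tolerance was met and gave Q20 mGluR5-/- replicate 1 a weight of 12.3. Gene-by-gene weights, added after seeing the data, called 3 in Q111 against Q20 mice with mGluR5, 2 in the loss in Q20 mice, 1 in the loss in Q111 mice, 5 in the averaged Q111 effect and 3 in the averaged loss. Where no cause is given it was not tested.

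Over all genes, the 96 calls in Q111 against Q20 mice with mGluR5 ranged from 44 to 977 under the alternatives, and the 148 without mGluR5 from 73 to 3270. The 50 in the loss in Q20 mice ranged from 25 to 2120, the 46 in Q111 mice from 25 to 347, the 73 in the interaction from 35 to 326, the 221 in the averaged Q111 effect from 51 to 1895 and the 49 in the averaged loss from 17 to 375. Same-numbered arrays correlated at -0.14 to 0.57. Only 11 of 18 pairs were over 0.1, where all had to be, and the numbers were not taken as pairs, although the replicate 2 pairs lay at 0.34 to 0.57 and 8 of 12 arrays correlated best with their own number, a hint of shared numbers from the data. With the replicate block the counts of channel genes stayed at 0 or 1, with Kcnn2 at an adjusted p of 0.00462 (limma) in the loss in Q20 mice. Over all genes it called 204 in Q111 against Q20 mice with mGluR5 and 129 in the loss in Q20 mice. Of 457 values of named genes under the alternatives 13 lost a call, 16 gained one and 0 reversed.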
